A study of Mus musculus with 6 samples.

Results

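Respiratory complex I was followed through the genes whose mouse symbols start with Nduf, in embryonic stem cells and in the somatic cells of the fetal male gonad. Probes were taken from the gene spots of the arrays when their transcript identifier matched such a symbol in the RefSeq gene table of assembly GRCm38.p6. This gave 46 genes on 54 probes, of 19751 symbols on 39429 gene probes. Of the 46 genes, 36 are subunits of the complex, 8 are assembly factors with Ndufaf symbols, and Ndufa4 and Ndufa4l2 are neither. All 46 carried the scanner software's mark for a signal well above background on all 6 arrays, so none entered the comparison through 1 group alone. No probe matched the 7 subunit genes of the mitochondrial DNA or Ndufb1, and these are not analysed here.

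The ESC group holds 3 samples of the male embryonic stem cell line VR15 with the Vasa::RFP transgene, a red fluorescent reporter of a germ cell gene. Soma stands for 3 samples of gonadal somatic cells, taken at E13.5 (days of embryonic development) from genital ridges of male embryos of the cross MCH x C57BL6/J with the transgene labelled Oct5<delta>PE-GFP. No drug or other treatment is given for either group, all 6 samples are male, and 100 ng of total RNA from each was labelled with Cy3 on an array of its own. The ESC samples come from 1 line, and the labels say neither how the soma cells were separated from germ cells nor how many embryos a sample holds. Per the series, the samples of a group are biological replicates, which the p-values take as given.

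Complex I, NADH:ubiquinone oxidoreductase, passes electrons from NADH through a flavin and a chain of iron-sulfur clusters to coenzyme Q, and pumps protons across the inner mitochondrial membrane. Its peripheral arm in the matrix holds the redox centres, and its membrane arm holds the pumps. Core subunits are conserved from bacteria and carry out the reaction, accessory subunits surround them, and assembly factors join the modules and then leave. Mouse embryonic stem cells are known to draw on both glycolysis and respiration.

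Every level below is the log2 processed signal of a probe less the 75th percentile of its array, and every difference is ESC minus soma on that scale. Levels of different probes are not comparable with each other. The 75th percentile was 1016, 975.02 and 959 on ESC 1 to 3, against 1337, 1388 and 1245 on soma 1 to 3. No spot was saturated, and 56.0% to 63.2% of gene probes were well above background. Across genes, arrays of the same group correlated at r = 0.9937 to 0.9952 and arrays of different groups at 0.7864 to 0.7996. The cell type lists went with the labels: all 10 pluripotency markers were higher in ESC, and all 10 Sertoli, all 6 tested fetal Leydig and all 8 stromal markers were lower. The soma samples also held RNA of other cells. All 7 tested erythroid markers were lower in ESC, with summed linear levels (in multiples of the 75th percentile) of 0.200 to 0.239 on ESC arrays and 815 to 863 on soma arrays, and Alas2, Hba-a1, Hba-x and Hbb-y were not well above background on any ESC array. All 6 tested macrophage markers were lower in ESC, with sums of 0.628 to 0.934 on ESC arrays and 6.36 to 6.78 on soma arrays, and Adgre1, C1qc and Cx3cr1 were not well above background on any ESC array. Germ cell markers were mixed, with 3 higher and 2 lower in ESC of 7 tested and sums of 12.6 to 13.4 on ESC arrays and 3.89 to 7.39 on soma arrays, as were endothelial markers, with 3 higher and 3 lower of 7 and sums of 18.02 to 18.8 on ESC arrays and 11.4 to 13.8 on soma arrays. Nanos2 of the germ cell list and Cdh5 and Emcn of the endothelial list were well above background on all soma arrays and on no ESC array.

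Subunits of complex I stood higher in ESC than in soma. Of the 36 measured, 31 passed as higher in ESC and 1 as lower (Ndufa3), against 15 and 11 under quantile normalization. Ndufa2, Ndufb11 and Ndufs8 were among the 4 that did not pass. Without quantile normalization, the same test (limma, adjusted p under 0.05 over 19675 genes) called 46.6% of all genes higher and 38.3% lower, 85% in all. The median difference of the subunits was 0.56, with a range of -0.23 to 1.37, against a median of 0.14 over all genes. Values of the groups did not overlap for 32 subunits higher in ESC and 1 lower, against 47.7% and 39.5% of all genes (87.2% in all). The differences were mostly modest: 5 subunits passed with at least 2-fold higher signal in ESC, against 24.2% of all genes, and none with 2-fold lower signal, against 23.2%. In bulk samples such as these, fewer cells of a type and less RNA per cell cannot be told apart.

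How high the complex stood depended on the scaling of the arrays. The probes of the subunits are bright, and the median subunit lay at the 92.9th percentile of brightness. Among the brightest 25% of the genes, 67.5% were higher in ESC and 21.4% lower, with a median difference of 0.53. The 34 subunits among them included 30 higher (88.2%) and 1 lower, with a median of 0.59. Quantile normalization, which gives all arrays the same distribution of signal, took the subunits' median to 0.089, with 15 higher and 11 lower in ESC, and shifted the median of all genes by -0.12. Scaling to the spike-in probes gave 23 higher and 1 lower and shifted all genes by -0.21. Scaling to the array median gave 34 higher and 0 lower and shifted all genes by 0.20. The calls of all genes moved with the scaling too. Under quantile normalization the subunits' share of higher calls was no larger than that of all genes, though their share of lower calls was smaller. Under spike-in and array-median scaling their share of higher calls was larger than that of all genes, and their share of lower calls smaller. Relative to the median of all genes, the subunits' median was 0.41 in the original, spike-in and array-median scalings. These subtract a constant from each array, so this value cannot differ between them. The value was 0.066 under quantile normalization. In all 5 settings (these 4 and normexp background correction), 14 subunits passed as higher, namely Ndufa1, Ndufa7, Ndufa9, Ndufa10, Ndufa11, Ndufb6, Ndufb7, Ndufb8, Ndufs1, Ndufs4, Ndufs6, Ndufs7, Ndufv2 and Ndufv3, and no subunit passed as lower in all 5. All differences below are in the original scaling, and where another of these settings turns the direction of a passing difference, this is said beside the gene.

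**Figure D1:**
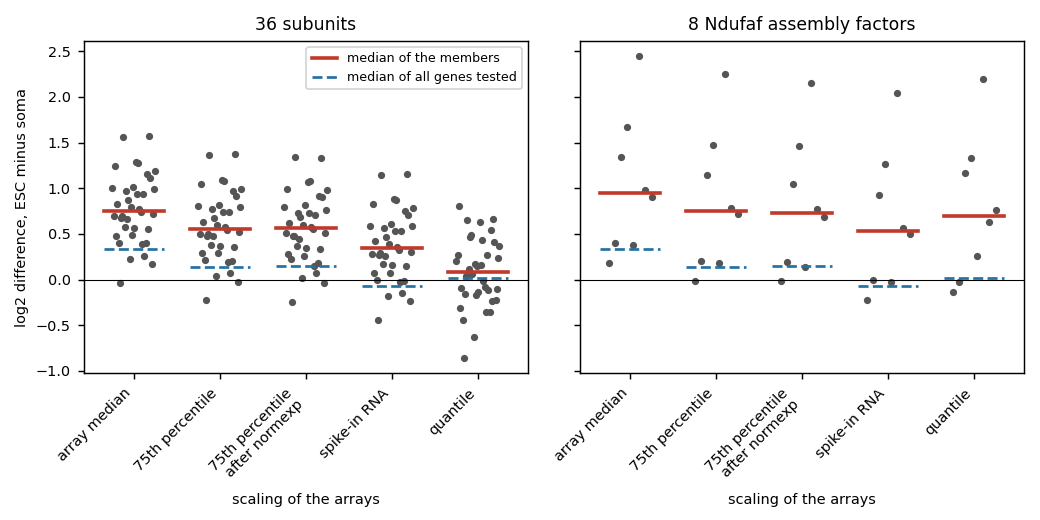
Log2 differences, ESC minus soma, of the 36 subunits and the 8 Ndufaf assembly factors under each scaling of the arrays, with a point for each gene, a bar at each class's median and a dashed line at the median of all genes tested. The subunits' median is 0.56 in the original scaling and 0.089 under quantile normalization, while that of the assembly factors is 0.75 and 0.70.

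Of the 7 measured core subunits, 5 were higher in ESC, with a median difference of 0.52. Ndufv1 binds the flavin and takes the electrons from NADH, and its levels were 5.06, 4.94 and 5.01 on ESC 1 to 3, against 4.42, 4.53 and 4.50 on soma 1 to 3. Ndufv2, which sits beside it with an iron-sulfur cluster, had 4.76, 4.62 and 4.70 on ESC 1 to 3, against 3.92, 3.85 and 3.91 on soma 1 to 3. Both were higher on every ESC array than on any soma array. The difference was 0.52 ± 0.057 (SE, adjusted p = 0.000232) for Ndufv1, which turned to -0.10 under quantile normalization, and 0.80 ± 0.058 (SE, adjusted p = 3.28e-05) for Ndufv2. Ndufs1 carries further clusters of the same module, with levels of 4.18, 4.07 and 4.13 on ESC 1 to 3, against 3.36, 3.39 and 3.40 on soma 1 to 3. Its difference was 0.74 ± 0.05 (SE, adjusted p = 2.4e-05), with no overlap between groups.

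The core subunits of the coenzyme Q module, next to the membrane, did not move together. Ndufs7, which holds the last cluster before coenzyme Q, had levels of 4.50, 4.43 and 4.50 on ESC 1 to 3, against 3.50, 3.59 and 3.59 on soma 1 to 3. All 3 ESC arrays lay above the soma arrays, and the difference was 0.92 ± 0.052 (SE, adjusted p = 1.1e-05). Ndufs8, which carries the pair of clusters that feed Ndufs7, had 1.75, 1.64 and 1.80 on ESC 1 to 3, against 1.76, 1.79 and 1.71 on soma 1 to 3. Here the arrays of both groups were interleaved, with a difference of -0.023 ± 0.061 (SE, adjusted p = 0.731), and under quantile normalization Ndufs8 passed as lower at -0.22. Ndufs3, which links the module to the rest of the arm, had 4.36, 4.27 and 4.35 on ESC 1 to 3, against 4.12, 4.09 and 4.16 on soma 1 to 3, without overlap. Its difference of 0.20 ± 0.052 (SE, adjusted p = 0.0114) turned to -0.36 under quantile normalization and to -0.011 under spike-in scaling.

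The log2 ratio of Ndufs7 to Ndufs8 within an array does not move with the scaling by a constant. It was 2.75 ± 0.046 in ESC and 1.80 ± 0.073 in soma (SD, n = 3 each), without overlap. These subunits at the end of the cluster chain thus changed unequally between the groups. The ratio of Ndufv2 to Ndufv1 was -0.31 ± 0.014 in ESC and -0.59 ± 0.088 in soma (SD, n = 3 each), a smaller difference of 0.28 without overlap. These ratios are descriptions of pairs named with earlier results known, and no test was run on them.

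**Figure D2:**
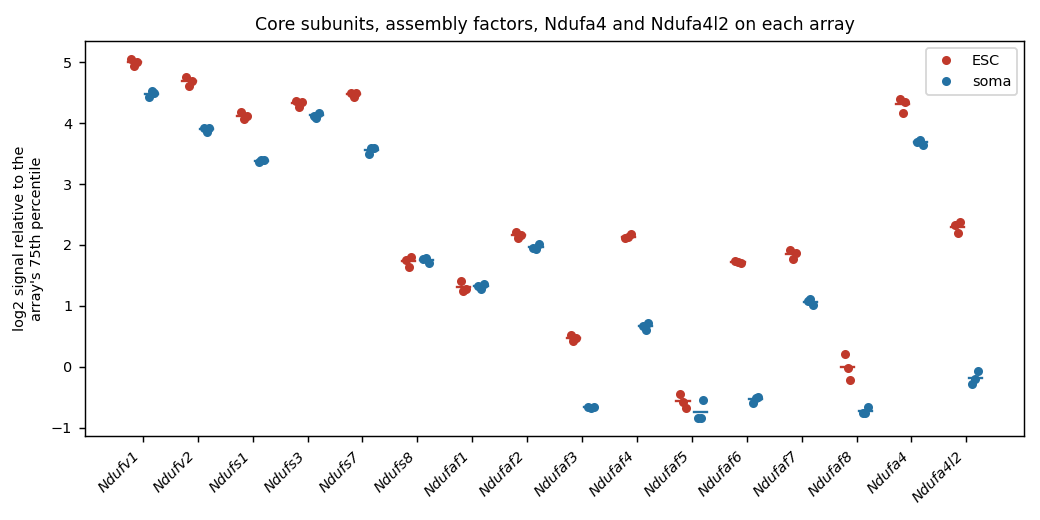
Log2 level relative to the array's 75th percentile of 6 core subunits, the 8 Ndufaf assembly factors, Ndufa4 and Ndufa4l2, with a point for each array, a bar at the mean and ESC left of soma. Ndufs8, Ndufaf1 and Ndufaf5 overlap between the groups, and all others are higher on all 3 ESC arrays in this scaling; under quantile normalization Ndufv1, Ndufs3 and Ndufaf2 turn.

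The accessory subunits of the peripheral arm had the largest median difference among the parts of the complex, 0.78, with 8 of 9 higher in ESC; no test was run between parts. Ndufs6, a zinc-binding subunit that joins late in assembly, led all subunits, with levels of 6.35, 6.29 and 6.31 on ESC 1 to 3, against 4.95, 4.86 and 5.01 on soma 1 to 3. Its ESC values were 2.59-fold those of soma, a difference of 1.37 ± 0.057 (SE, adjusted p = 3.1e-06). Ndufa7, another small subunit of this arm, was nearly level with it, at 6.27, 6.23 and 6.29 on ESC 1 to 3, against 4.86, 4.87 and 4.98 on soma 1 to 3. The difference was 1.36 ± 0.055 (SE, adjusted p = 2.71e-06), or 2.57-fold. Neither gene's groups overlapped, and both remained higher by 0.65 or more under quantile normalization, the lowest of the alternatives run.

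The other members of this arm ranged more widely. Ndufv3, a subunit of the NADH-binding module, was higher by 0.99, and Ndufs4, a late-joining subunit whose loss in mice causes a disease like Leigh syndrome, by 0.97. Ndufa9, which binds NADPH, was higher by 0.78, Ndufa6, an LYR motif protein, by 0.50, and Ndufa5 by 0.48. Ndufa12, which takes the place of the assembly factor Ndufaf2 late in assembly, was higher by 0.29. Ndufa5 and Ndufa12 turned under quantile normalization, to -0.16 and -0.31. Ndufa2, with a thioredoxin-like fold, had 5.12 and 5.05 on ESC 1 and 2, its value on ESC 3 being left out for an outlier mark, against 4.90, 4.75 and 4.96 on soma 1 to 3. Its difference of 0.21 ± 0.083 (SE, adjusted p = 0.0621) did not pass, with 2 ESC values that lay above the soma values. In the series matrix, an alternative that holds a value for ESC 3 too, it was -0.30 (adjusted p = 0.537 in limma). Ndufa2 passed as lower under quantile normalization (-0.44), and as higher under array-median scaling (0.40) and normexp background correction (0.22).

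In the membrane arm, at its end near the peripheral arm, 8 of 9 accessory subunits were higher in ESC and 1 was lower, with a median of 0.50. Ndufa11, which lies against the membrane core, was highest at 1.04 ± 0.056 (SE), or 2.06-fold, followed by Ndufa1 at 0.80 and Ndufa13, also known as GRIM-19, at 0.63. Ndufc1 (0.54), Ndufa10 (0.50), Ndufa8 (0.38), Ndufs5 (0.36) and Ndufc2 (0.19) also passed. Of these, Ndufa8 and Ndufs5 are held by disulfide bonds on the side of the intermembrane space. Under quantile normalization Ndufa13, Ndufc1, Ndufs5 and Ndufc2 turned, to values between -0.35 and -0.081, and Ndufc2 was also at -0.023 under spike-in scaling.

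Ndufa3 was the exception among the subunits. It is a small membrane-anchored subunit, and its levels were 4.76, 4.71 and 4.83 on ESC 1 to 3, against 4.98, 4.91 and 5.08 on soma 1 to 3. The lowest soma array lay just above the highest ESC array. The difference was -0.23 ± 0.065 (SE, adjusted p = 0.017). It did not pass without ESC 2 (-0.20), without the filter on dim probes, or when arrays were scaled to their medians (-0.031).

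At the far end of the membrane arm, 9 of 10 accessory subunits were higher in ESC, with a median of 0.64. Ndufb6 had levels of 4.25, 4.13 and 4.15 on ESC 1 to 3, against 3.01, 3.09 and 3.15 on soma 1 to 3, and Ndufb8 had 5.55, 5.49 and 5.55 on ESC 1 to 3, against 4.48, 4.47 and 4.39 on soma 1 to 3. Both are single-pass membrane subunits, and both differed by more than 1 log2 unit, at 1.09 ± 0.061 (SE, adjusted p = 1.02e-05) and 1.08 ± 0.051 (SE, adjusted p = 4.92e-06). Ndufb4 (0.82), Ndufb7 (0.74), Ndufb10 (0.68), Ndufb2 (0.60), Ndufb9 (0.57), Ndufb5 (0.37) and Ndufb3 (0.29) followed. Ndufb7 and Ndufb10 face the intermembrane space, and Ndufb9 is an LYR motif protein like Ndufa6. Ndufb3, Ndufb5 and Ndufb9 turned under quantile normalization, to -0.17, -0.14 and -0.017. Ndufb11, an X-linked subunit, did not pass: it had 5.20, 5.16 and 5.23 on ESC 1 to 3, against 5.15, 5.11 and 5.22 on soma 1 to 3, with a difference of 0.035 ± 0.052 (SE, adjusted p = 0.547). Ndufb11 passed as lower under quantile normalization (-0.63) and with the mean of its probes (-0.20), and as higher under array-median scaling (0.23). Ndufab1, the mitochondrial acyl carrier protein, sits in both arms and was higher by 0.47. Its probe was the dimmest of the subunits' probes, at the 55.8th percentile of brightness.

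**Figure D3:**
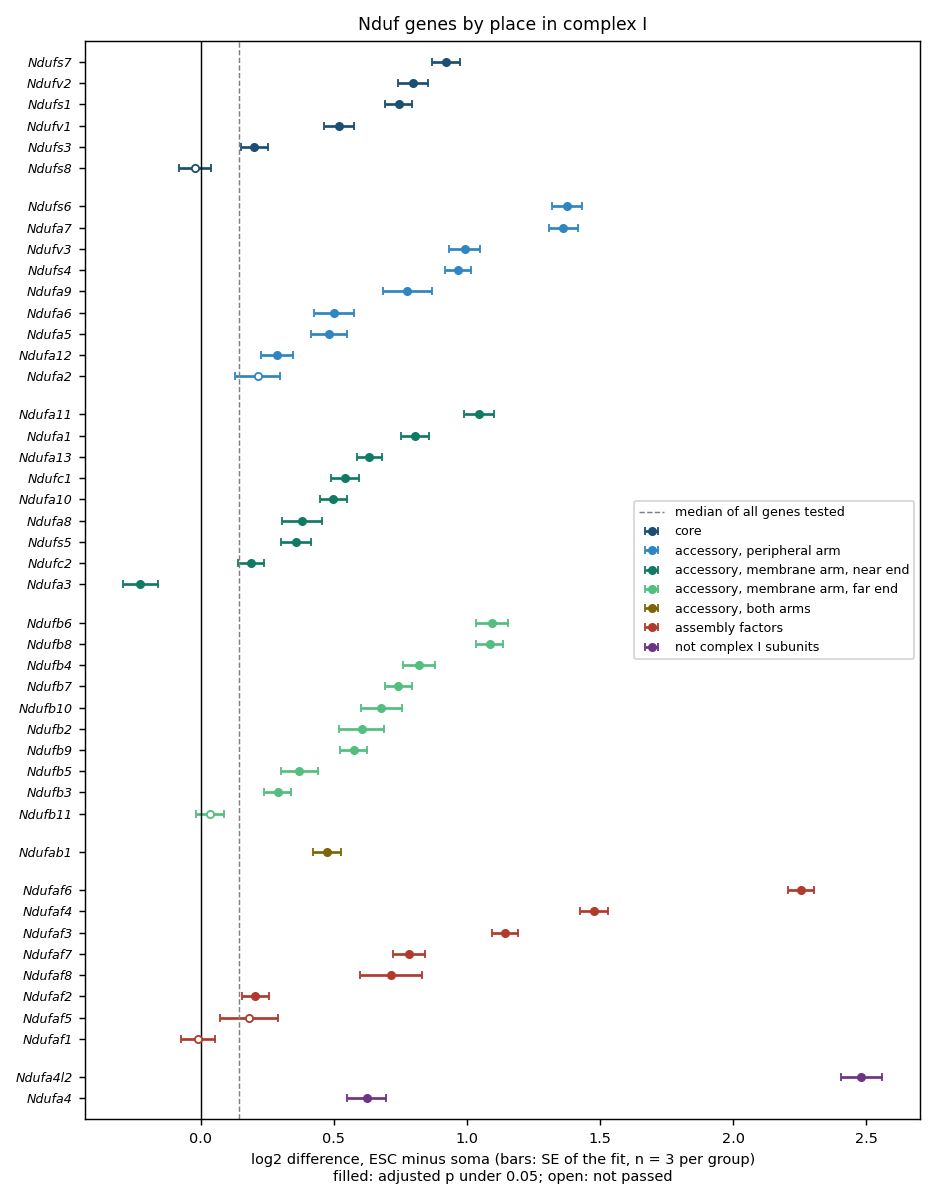
Log2 difference, ESC minus soma, with its SE from limma for 45 of the 46 Nduf genes, grouped by their place in the complex. Ndufa3 is the only subunit that passed as lower, and Ndufa4l2 and Ndufaf6 have the largest differences at 2.48 and 2.25; several small differences turn under quantile normalization.

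Some of these genes share letters just after their transcription start. RefSeq windows of GRCm38.p6 (250 bases before and 50 bases after the start) were found for 40 of the 46 genes. They were searched on both strands for AAGATGGC, a core of the YY1 motif. It stood in the windows of 7 of 32 subunits (21.9%), against 3.19% of 27025 genes with a window, 4.76% of the tested genes and 6.95% of the brightest 25%. Ndufaf8 held it among the 7 assembly factors with a window. All 8 sites lay on the gene's own strand and began 11 to 39 bases after the start, and 5 of them ran on with GGC. They are printed in order of the gene's difference between ESC and soma, the largest first, with the motif in capitals.
Ndufs6, chr13:73328433-73328459, minus strand: ggtcaccggcAAGATGGCggcggtgct
Ndufb8, chr19:44555393-44555414, minus strand: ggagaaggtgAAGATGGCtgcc
Ndufs4, chr13:114388045-114388069, minus strand: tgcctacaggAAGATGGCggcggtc
Ndufs7, chr10:80249463-80249492, plus strand: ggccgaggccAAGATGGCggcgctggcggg
Ndufa9, chr6:126849096-126849125, minus strand: attgtgggagAAGATGGCggccgccgtccg
Ndufaf8, chr11:120098934-120098963, plus strand: ggcagggcccAAGATGGCggcgccctcgag
Ndufc1, chr3:51408914-51408943, minus strand: cctgcggaacAAGATGGCgccgtccgtagt
Ndufa3, chr7:3617385-3617414, plus strand: cgccaagaacAAGATGGCcgggagtaagta
The holders ran from Ndufs6, the subunit with the largest difference, to Ndufa3, the only one that passed as lower, so the holders include genes of both directions. Such a match describes the letters of the window and is not evidence of binding. AAGATGGC also holds ATG, the letters of a start codon, and all 8 sites lay after the start on the gene's own strand. Whether the sites are the genes' translation starts was not tested, so their share cannot be read as that of a promoter element.

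The other motifs searched stood in the windows of 1 to 10 of the 32 subunits. The palindromic NRF1 motif stood in the window of 1 of 32 subunits (Ndufa11) and of the assembly factors Ndufaf4 and Ndufaf5, against 1.07% of all genes and 2.11% of the tested ones. CCGGAAG, an ETS core, was found in 4 subunits (12.5%), against 9.93% of all genes and 17.9% of the tested ones. AAGGTCA, the motif of the estrogen-related receptors, was found in 3 subunits (Ndufb2, Ndufb4 and Ndufs5; 9.38%), against 5.38% and 4.12%. CCAAT was found in 10 subunits (31.2%), against 41.1% and 42.8%, and the E-box CACGTG in 2 (6.25%), against 8.09% and 11.3%. No motif contains another, but CCGGAAG ends in the letters with which AAGATGGC and AAGGTCA begin. Absence says only that these letters are not in the window.

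The 250 bases before the start of the genes with the 2 largest differences and of Ndufa3 are given to set the extremes side by side. Capitals mark a CCAAT box, read as ATTGG on this strand, in Ndufs6 and the E-box in Ndufa7. No motif of the set was found in the part shown for Ndufa3.
Ndufs6, chr13:73328483-73328732, minus strand: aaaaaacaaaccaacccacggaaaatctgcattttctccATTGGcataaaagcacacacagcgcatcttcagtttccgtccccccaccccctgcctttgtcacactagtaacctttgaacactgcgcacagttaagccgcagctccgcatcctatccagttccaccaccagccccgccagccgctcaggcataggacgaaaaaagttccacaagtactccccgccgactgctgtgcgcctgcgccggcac
Ndufa7, chr17:33824322-33824571, plus strand: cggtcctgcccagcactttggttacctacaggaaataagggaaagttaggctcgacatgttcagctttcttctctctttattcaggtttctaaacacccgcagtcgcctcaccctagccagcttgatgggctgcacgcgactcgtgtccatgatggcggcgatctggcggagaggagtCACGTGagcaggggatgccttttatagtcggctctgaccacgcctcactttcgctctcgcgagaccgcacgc
Ndufa3, chr7:3617123-3617372, plus strand: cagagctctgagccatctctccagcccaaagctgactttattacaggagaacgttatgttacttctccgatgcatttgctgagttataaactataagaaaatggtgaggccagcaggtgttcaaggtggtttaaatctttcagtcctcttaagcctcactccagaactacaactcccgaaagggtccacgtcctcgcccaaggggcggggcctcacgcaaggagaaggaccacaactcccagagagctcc
The GC content of these stretches was 55.2% for Ndufs6, 56% for Ndufa7 and 50.4% for Ndufa3.

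The windows of 14 members overlapped that of a gene on the opposite strand. In 12 of these pairs both genes were tested, and in 5 both passed in the same direction. Rps28, a ribosomal protein gene beside Ndufa7, was higher in ESC by 0.53, Mrpl47, a mitochondrial ribosomal protein gene beside Ndufb5, by 2.02, and Rnf113a1 beside Ndufa1 by 1.85. Phf14 beside Ndufa4 and Kbtbd4 beside Ndufs3 were lower, at -1.22 and -0.70, although the members beside them were higher. Over the 12 neighbours, 6 were higher, 3 lower and 3 did not pass, a share of higher calls near the 46.6% of all genes.

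Of the 8 assembly factors named Ndufaf, 6 passed as higher in ESC and 0 as lower, against 46.6% and 38.3% of all genes, and Ndufaf1 and Ndufaf5 did not pass. The median difference was 0.75, with a range of -0.010 to 2.25, and 3 of them were at least 2-fold higher. They were dimmer than the subunits, at a median percentile of 67.5, and 7 of 8 lay between the 50th and 75th percentiles, where the median difference of all genes was 0.10. The median was 0.70 under quantile normalization and 0.54 under spike-in scaling, and in all 5 settings Ndufaf3, Ndufaf4, Ndufaf6, Ndufaf7 and Ndufaf8 passed as higher. The share of all genes that did so was not counted. Ndufaf1 passed as lower under spike-in scaling, at -0.22.

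Ndufaf6, which in human cells is needed early, when the membrane subunit ND1 is built in, had the largest difference of the class. Its levels were 1.74, 1.72 and 1.70 on ESC 1 to 3, against -0.59, -0.51 and -0.50 on soma 1 to 3. The ESC values were 4.77-fold those of soma, a difference of 2.25 ± 0.05 (SE, adjusted p = 4.13e-07). Ndufaf3 and Ndufaf4 bind each other and escort the coenzyme Q module. Ndufaf4 had 2.11, 2.13 and 2.17 on ESC 1 to 3, against 0.67, 0.60 and 0.72 on soma 1 to 3, and Ndufaf3 had 0.53, 0.42 and 0.48 on ESC 1 to 3, against -0.66, -0.67 and -0.66 on soma 1 to 3. Neither overlapped, with differences of 1.48 ± 0.054 (SE, adjusted p = 1.88e-06) for Ndufaf4 and 1.14 ± 0.05 (SE, adjusted p = 3.67e-06) for Ndufaf3. The log2 ratio of Ndufaf4 to Ndufaf3 was 1.66 ± 0.072 in ESC and 1.33 ± 0.056 in soma (SD, n = 3 each), a gap of 0.33 between the groups.

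Ndufaf5 and Ndufaf7 are enzymes that modify arginine residues of the coenzyme Q module, in human cells of NDUFS7 by NDUFAF5. Ndufaf7 had 1.91, 1.77 and 1.87 on ESC 1 to 3, against 1.07, 1.12 and 1.02 on soma 1 to 3, a difference of 0.78 ± 0.061 (SE, adjusted p = 4.54e-05). Ndufaf5 had -0.44, -0.57 and -0.67 on ESC 1 to 3, against -0.85, -0.85 and -0.54 on soma 1 to 3. Soma 3 was higher than the other soma arrays and lay among the ESC values, and the difference was 0.18 ± 0.11 (SE, adjusted p = 0.165). Without soma 3 it was 0.28 and passed. Ndufaf8, which in human cells stabilises NDUFAF5, had 0.21, -0.025 and -0.22 on ESC 1 to 3, against -0.76, -0.77 and -0.66 on soma 1 to 3. The groups did not overlap, although the ESC arrays spread widely, and the difference was 0.71 ± 0.12 (SE, adjusted p = 0.00146). The ratio of Ndufaf8 to Ndufaf5 differed by 0.53 between the groups, with 0.55 ± 0.100 in ESC and 0.019 ± 0.11 in soma (SD, n = 3 each).

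Ndufaf2, which holds the place of Ndufa12 on a late intermediate, had 2.22, 2.12 and 2.17 on ESC 1 to 3, against 1.96, 1.93 and 2.01 on soma 1 to 3. It passed with a small difference of 0.20 ± 0.052 (SE, adjusted p = 0.0107), which was -0.030 under quantile normalization and -0.0073 under spike-in scaling. Its ratio to Ndufa12 overlapped between the groups, at -2.55 ± 0.055 in ESC and -2.47 ± 0.050 in soma (SD, n = 3 each). Ndufaf1, a part of the assembly complex of the membrane arm, had 1.41, 1.24 and 1.28 on ESC 1 to 3, against 1.33, 1.28 and 1.36 on soma 1 to 3. The groups were interleaved, with a difference of -0.010 ± 0.064 (SE, adjusted p = 0.887).

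Ndufaf1 works with Ecsit, Acad9 and Tmem126b, and these partners did not move together. Ecsit had 3.84, 3.64 and 3.68 on ESC 1 to 3, against 1.89, 1.92 and 1.92 on soma 1 to 3, and Acad9, which also oxidises fatty acids, had 0.41, 0.38 and 0.37 on ESC 1 to 3, against 1.27, 1.34 and 1.20 on soma 1 to 3. Ecsit was higher in ESC and Acad9 lower, by 1.81 ± 0.066 (SE, adjusted p = 1.96e-06) and -0.88 ± 0.055 (SE, adjusted p = 1.66e-05). Tmem126b was higher by 0.68. The ratio of Ecsit to Acad9 was 3.33 ± 0.087 in ESC and 0.64 ± 0.069 in soma (SD, n = 3 each), the widest gap among the 9 pairs computed.

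Ndufa4 and Ndufa4l2 carry complex I names, but the protein of Ndufa4 is now counted with complex IV, and Ndufa4l2 is its hypoxia-inducible relative. Ndufa4 had 4.39, 4.17 and 4.35 on ESC 1 to 3, against 3.69, 3.72 and 3.65 on soma 1 to 3, and Ndufa4l2 had 2.33, 2.19 and 2.38 on ESC 1 to 3, against -0.28, -0.19 and -0.076 on soma 1 to 3. Ndufa4l2 had the largest difference of the 46 genes, 2.48 ± 0.079 (SE, adjusted p = 1.2e-06), or 5.59-fold. That of Ndufa4, 0.62 ± 0.073 (SE, adjusted p = 0.000307), was close to the median subunit. The ratio of Ndufa4l2 to Ndufa4 was -2.01 ± 0.051 in ESC and -3.87 ± 0.13 in soma (SD, n = 3 each).

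To ask how the members stood within the complex, each array was rescaled to the median of its 36 subunits, which takes out any scaling by a constant. On this scale 13 subunits were higher in ESC than the complex's median, 11 were lower and 12 did not pass, while 29.9% of all genes were called higher and 54.4% lower (84.3% in all). As the subunits set this median, a near-even split of them above and below it is built in. Under quantile normalization, 17 subunits were higher and 10 lower on this scale. Ndufs6 (0.82), Ndufa7 (0.81), Ndufb6 (0.54), Ndufb8 (0.53) and Ndufa11 (0.49) were the furthest above. Ndufa3 (-0.78), Ndufs8 (-0.58), Ndufb11 (-0.52) and Ndufc2 (-0.37) were among the furthest below. Each of the 3 parts of the complex with several accessory subunits, and the core, held members of both kinds. Among the core subunits, Ndufs7 (0.37), Ndufv2 (0.24) and Ndufs1 (0.19) were above, Ndufs3 (-0.35) and Ndufs8 below, and Ndufv1 (-0.036) did not pass.

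The assembly factors split on the same scale. Ndufaf6 (1.70), Ndufaf4 (0.92), Ndufaf3 (0.59) and Ndufaf7 (0.23) were higher in ESC relative to the complex. Ndufaf2 (-0.35), Ndufaf5 (-0.37) and Ndufaf1 (-0.56) were lower, and Ndufaf8 (0.16) did not pass. This scale takes out a constant only, and the assembly factors were dimmer than the subunits. Under quantile normalization the median difference was 0.70 for the assembly factors and 0.089 for the subunits. In the original scaling these medians were 0.75 and 0.56, so the distance between the 2 classes depended on the normalization. Ndufa4l2 was higher by 1.93 and Ndufa4 did not pass at 0.068. The log2 ratio of the extreme subunits, Ndufs6 to Ndufa3, was 1.55 ± 0.060 in ESC and -0.050 ± 0.019 in soma (SD, n = 3 each).

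**Figure D4:**
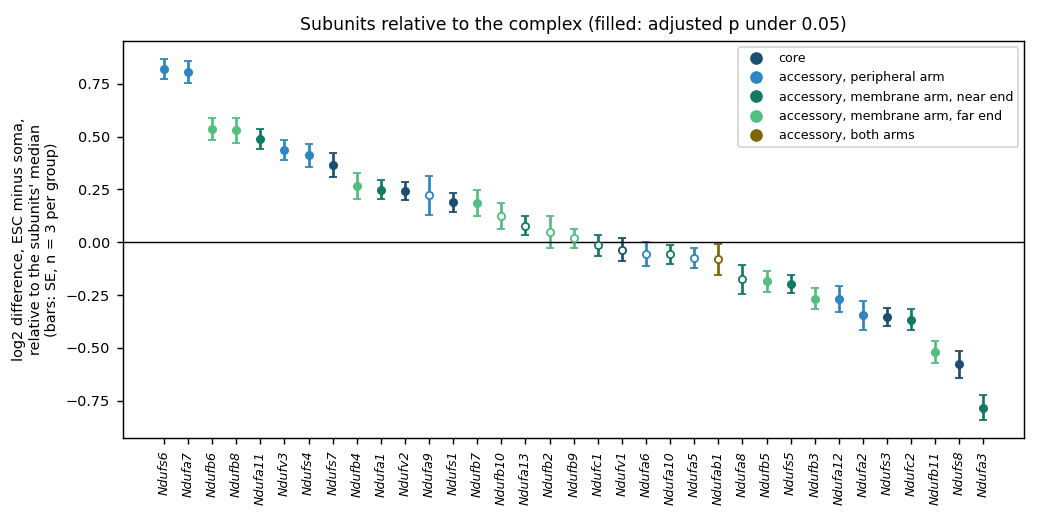
Log2 difference, ESC minus soma, after each array was scaled to the median of the complex I subunits, with its SE, for 35 of the 36 subunits in order. They run from Ndufs6 at 0.82 to Ndufa3 at -0.78, and 12 did not pass the test.

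Replicates of a group were close to each other in these genes. The median SD over the subunits was 0.060 in ESC and 0.049 in soma, against 0.090 and 0.085 over all genes tested. The median level of the subunits was 4.72, 4.60 and 4.65 on ESC 1 to 3, against 4.10, 4.07 and 4.13 on soma 1 to 3. That of the assembly factors was 1.58, 1.48 and 1.49 on ESC 1 to 3, against 0.040, 0.040 and 0.11 on soma 1 to 3. All ESC arrays lay above all soma arrays in both classes, in this scaling. Across the 36 subunits, the mean level and the difference had a Pearson's r of 0.22 and a Spearman's rho of 0.19, given as a description over genes that share the same arrays.

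The arrays' slides and scans touch each of these results. Soma 1 and 2 were on slide 1, and soma 3 was on slide 2 with the 3 ESC arrays, and each scan held arrays of a single group, so that scan and cell type cannot be told apart. On the shared slide alone, soma 3 was the only soma array. The median difference there was 0.56 for the subunits and 0.74 for the assembly factors, against 0.11 for all genes. With the slide as a fixed block, 29 subunits were higher and 1 lower, and Ndufs3 (0.16), Ndufc2 (0.13) and Ndufaf2 (0.16) no longer passed. Both of these fits rest on soma 3 for the soma side. Among the soma arrays, every tested germ cell marker was highest on soma 3, with Nanos2 at -0.41, against -1.89 and -1.04 on soma 1 and 2. The red cell, macrophage, germ cell and endothelial markers, given above as summed levels and counts, also differed between the groups. The part of these cells in the differences was not tested.

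More than 1 probe was kept for 7 members: Ndufa5, Ndufaf4, Ndufb4, Ndufb5, Ndufb6, Ndufb11 and Ndufv3. The probes of Ndufb6 gave 1.09 and 1.10, those of Ndufb4 0.82 and 0.76, those of Ndufa5 0.48 and 0.45, and those of Ndufaf4 1.48 and 1.25. For Ndufv3 the dimmer probe gave 0.45 where the brighter gave 0.99. Ndufb5 is the gene whose probes passed in opposite directions. Its brighter probe had 4.28, 4.06 and 4.15 on ESC 1 to 3, against 3.80, 3.75 and 3.83 on soma 1 to 3, a difference of 0.37. Its dimmer probe had 0.79, 0.64 and 0.81 on ESC 1 to 3, against 1.09, 0.96 and 1.19 on soma 1 to 3, a difference of -0.33 ± 0.083 (SE, adjusted p = 0.00997). The direction of Ndufb5 therefore depends on the probe. For Ndufb11 the dimmer probe gave -0.42 ± 0.093 (SE, adjusted p = 0.00561), against 0.035 for the brighter. The other probe of Ndufaf5 failed the background mark on all 6 arrays.

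The gene table lists close relatives or pseudogene copies of some members that have no probe of their own among those matched: Ndufb4b, Ndufb4c, Ndufa11b, Ndufa12-ps, Ndufab1-ps, Ndufs5-ps and Ndufs6b. Probe sequences were not used here, so whether the probes of Ndufb4, Ndufa11, Ndufa12, Ndufab1, Ndufs5 and Ndufs6 also bind their transcripts is uncertain.

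Genes that build or supply the complex were also taken from 4 lists outside the Nduf names. Of 52 tested, 38 were higher in ESC and 10 lower, with a median of 0.48, against 46.6% and 38.3% of all genes. Under spike-in scaling 27 were higher, and under quantile normalization 30 were higher and 14 lower. Fewer of all genes were also called higher under each of these scalings than in the original one. The share of higher calls in the lists was larger than that of all genes under both. Among 13 other assembly factors of complex I, 9 were higher and 2 lower, with a median of 0.68. Ecsit, given above, and Nubpl, which delivers iron-sulfur clusters to the complex, at 1.29, were the highest. Lyrm2, an LYR motif protein, was the lowest at -1.68 ± 0.054 (SE, adjusted p = 1.29e-06), followed by Acad9. Timmdc1, a membrane assembly factor, had 1.92, 1.48 and 2.07 on ESC 1 to 3, against 1.26, 1.14 and 1.61 on soma 1 to 3, and its difference of 0.49 ± 0.19 (SE, adjusted p = 0.055) did not pass; without ESC 2 it was 0.66 and without soma 3 it was 0.63, and both passed. It passed in 9 of 21 alternatives, at up to 0.81 with the mean of its probes.

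Of 15 genes of iron-sulfur cluster assembly, 11 were higher and 4 lower, with a median of 0.46. Hspa9, the mitochondrial chaperone that helps release new clusters from their scaffold, was higher by 1.91, and Nfu1, which passes clusters to their target enzymes, by 1.83. Fdxr, the ferredoxin reductase that also serves steroid synthesis, was lower, at 0.85, 0.82 and 0.98 on ESC 1 to 3, against 4.24, 4.22 and 4.10 on soma 1 to 3. Its difference was -3.31 ± 0.069 (SE, adjusted p = 3.61e-07), in samples where all 6 tested fetal Leydig markers were lower in ESC, with summed linear levels of 7.93 to 8.48 on ESC arrays and 108 to 111 on soma arrays; the part of Leydig cells in it was not tested. Iba57, a late factor for clusters, was lower at -0.85. Of 12 tested genes of coenzyme Q synthesis, 9 were higher and 1 lower, with a median of 0.46. Pdss1, which starts the side chain, was highest at 1.70, then Coq4 at 1.35, and Coq9 was lower at -0.30.

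Enzymes that reduce coenzyme Q at other points than complex I included 9 higher and 3 lower of 12, with a median of 0.36. Gpd2, the mitochondrial glycerol phosphate dehydrogenase, had 0.15, -0.038 and -0.022 on ESC 1 to 3, against -2.88, -2.88 and -3.10 on soma 1 to 3, and Prodh, proline dehydrogenase, had 1.28, 1.32 and 1.36 on ESC 1 to 3, against -1.08, -0.90 and -1.10 on soma 1 to 3. Both were higher in ESC by more than any subunit of complex I, at 2.98 ± 0.09 (SE, adjusted p = 1.03e-06) and 2.35 ± 0.072 (SE, adjusted p = 1.04e-06). Sqor, which oxidises sulfide, was lower at -2.08. Chdh, choline dehydrogenase, was not well above background on any ESC array and was at least 3.08-fold lower there (mean of the soma arrays against the lowest signal well above background on the ESC arrays). When arrays were scaled to the subunits of complex I, 17 of the 52 pathway genes were higher in ESC and 21 lower. On that scale 29.9% of all genes were higher and 54.4% lower.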

How the data were processed

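Each of the 6 samples was hybridised to its own Agilent mouse 1-colour array. The deposited intensity values (processed signal) come from Feature Extraction, version 10.7.3.1 per the file headers, and were background-subtracted and detrended within an array but not scaled between arrays, on a grid of genome build mm9. The deposited series matrix holds log2 values centred per probe, with no stated scale, and served as an alternative. Its columns correlated with centred scanner values at r = 1, and their medians were 0.161, -0.0879 and 0.0634 for ESC 1 to 3, against 0.055, -0.25 and -0.0654 for soma 1 to 3.

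Processed signals were put on the log2 scale and the 75th percentile of each array was subtracted. Control spots (1377) and outlier values (15) were dropped. Probes entered when well above background on all arrays of at least 1 group, and a gene was its brightest such probe. Of gene probes, 66.08% had a symbol. A probe without a symbol was counted as a gene under its identifier on the array. Of the 19675 genes tested, 14208 had a symbol, and shares and medians of all genes include the others. ESC minus soma was tested with limma 3.58.1 in R 4.3.3 (two-sided, Benjamini-Hochberg over 19675 genes, threshold 0.05).

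The members, gene lists, marker lists and motifs were chosen with earlier results of these data known. All Nduf genes may be named, with values on every array for core subunits, Ndufaf genes, Ndufa4, Ndufa4l2, the 4 largest differences of subunits in each direction, and probes that disagree. One core subunit was counted with its lists but is not reported here singly. The other lists give their 2 largest passing differences each way, and genes named for a role or a neighbouring window were chosen after their values were seen. Promoter windows and motif sites came from RefSeq sequences of GRCm38.p6.

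Alternatives covered other normalizations, normexp (offset 50, on median spot signals), filters, probe summaries, variance models, slide and scan blocks, a replicate block and leaving out each array. Deviations of arrays with the same replicate number correlated at -0.047, 0.068 and 0.027, so the numbers were not taken as pairs. The number of arrays limits the precision.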

Additional observations from a re-analysis of the deposited data

How the results depend on the processing

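The median of all genes was 0.023 under quantile normalization, 0.34 under array-median scaling, -0.068 under spike-in scaling and -0.41 under scaling to the subunits of complex I, against 0.14 in the original scaling. It was 0.13 with no filter on dim probes, 0.21 with probes well above background on all 6 arrays, 0.11 with the slide as a fixed block and 0.11 on the shared slide. Subunits counted 15 higher and 11 lower (median 0.089) under quantile normalization and 0 lower (median 0.75) under array-median scaling. Their median was 0.35 under spike-in scaling. With no filter 0 were lower, and with the mean of a gene's probes 2 were. The median of the assembly factors was 0.70 under quantile normalization, 0.94 under array-median scaling and 0.54 under spike-in scaling, which also made 1 of them lower. Scaled to the complex, 29.9% of all genes were higher (5880) and 54.4% lower. On this scale subunits counted 13 higher and 11 lower (median 0.0030), and 3 assembly factors were lower (median 0.19). The other lists held 17 higher and 21 lower. Leaving out 1 array at a time gave medians of 0.10 to 0.17 for all genes, 0.52 to 0.58 for subunits and 0.68 to 0.79 for assembly factors, with 31 subunits higher each time and 0 to 1 lower (0 without ESC 2).

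Among differences that passed in the original or the alternative setting, the sign turned under quantile normalization for Ndufb11 (-0.63), Ndufa2 (-0.44), Ndufs3 (-0.36), Ndufc2 (-0.35), Ndufa12 (-0.31), Ndufs5 (-0.23), Ndufb3 (-0.17), Ndufa5 (-0.16), Ndufb5 (-0.14), Ndufv1 (-0.10), Ndufa13 (-0.096), Ndufc1 (-0.081), Ndufaf2 (-0.030) and Ndufb9 (-0.017). Under spike-in scaling it turned for Ndufc2 (-0.023), Ndufs3 (-0.011) and Ndufaf2 (-0.0073), and with the mean of probes for Ndufb11 (-0.20). Scaled to the complex, where values are relative to its median by construction, it turned for Ndufb11 (-0.52), Ndufaf5 (-0.37), Ndufc2 (-0.37), Ndufs3 (-0.35), Ndufaf2 (-0.35), Ndufa2 (-0.35), Ndufa12 (-0.27), Ndufb3 (-0.27), Ndufs5 (-0.20), Ndufb5 (-0.19), Ndufa8 (-0.17), Ndufab1 (-0.081), Ndufa5 (-0.073), Ndufa10 (-0.057), Ndufa6 (-0.055), Ndufv1 (-0.036) and Ndufc1 (-0.013). The cause of the other turns was not tested. Of differences that passed in neither setting, Ndufa2 was -0.30 with the series matrix, Ndufb11 -0.18 and Ndufaf5 -0.030 under spike-in scaling, Ndufb11 and Ndufaf5 both -0.019 with the slide as a fixed block and on the shared slide, and Ndufs8 and Ndufaf1 turned to between 0.0062 and 0.19. Of the 46 members, 17 kept their direction and their side of the threshold in all 21 alternatives. The replicate block, whose numbers do not pair the samples, gave 31 subunits higher and 1 lower, 6 assembly factors higher and 34 of the other lists higher. Slide and scan as random blocks had correlations of 0.057 and -0.033. With 3 arrays a group, no test for outlying samples was run.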
